A study of Mus musculus with 2 samples.

Results

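The 44 genes described here encode regulators of pre-mRNA splicing: 10 SR proteins, 2 TRA2 proteins, 14 hnRNPs, 3 PTB proteins, 3 MBNL proteins, 2 CELF proteins, 3 other tissue regulators (Rbfox2, Rbm38 and Qk), 6 factors of the 3′ splice site and the U1 snRNP-associated gene Luc7l. They were chosen by name from these families, and all 44 were found among the 43346 genes quantified. Polyadenylated RNA of MEL cells, an established mouse erythroleukemia line whose cells resemble red blood cell precursors, was sequenced single-end. The labels give 1 group of 2 biological replicates, with no treatment, genotype or time stated, so no condition was compared. The values therefore describe levels, transcript forms and the spread between the 2 replicates.

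SR proteins carry a domain rich in arginine and serine and bind exonic sequences, where they generally favour use of the exon. Many hnRNPs, among them the PTB proteins, bind introns and exons and often silence sites, while MBNL, CELF, RBFOX, RBM38 and QK proteins adjust particular exons by tissue and developmental stage. The U2AF proteins, SF1 and the SF3B subunits recognise the branch point, the pyrimidine tract and the AG that end an intron. Many of these proteins limit their own synthesis: they promote inclusion of a poison exon, or splicing of an intron behind the stop codon, which sends the transcript to nonsense-mediated decay (NMD), or they leave an intron in the transcript.

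Expected counts on genes summed to 67735380 in replicate 1 and 79923143 in replicate 2, of which the 44 genes took 2.05% and 1.61%. Between 882 and 124181 counts lay on each of them per replicate, so counting error was at most 3.37%, below most differences between the replicates. All 10 erythroid marker genes reached 10 TPM in each replicate, with the erythroid factor Gata1 at 163 and 376. Of the markers of other cells, 1 of 10 myeloid (Cebpa, 2.67 and 3.12), 0 of 9 lymphoid, 1 of 9 stromal or epithelial (Pdgfrb, 1.14 and 1.64) and 0 of 8 neuronal genes reached TPM of 1 in both. Their summed levels were 3.07 and 3.80 for the myeloid, 0.520 and 0.850 for the lymphoid, 1.91 and 2.99 for the stromal or epithelial and 1.00 and 1.74 for the neuronal list.

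Splicing regulators were among the abundant messages of this line. TPM, a length-corrected measure of a gene's share of all transcripts, is given here as mean ± SD of the replicates (n = 2). All 44 genes reached 1 TPM in each replicate, against 46.8% of all protein-coding genes. A level of 10 TPM in each was reached by 41 of 44, against 31.4% of protein-coding genes. At 100 TPM in each, reached by 29, the share of protein-coding genes was not counted. For scale, the mean of Ptbp3, 105 TPM, stood at percentile 93.6 among them. Their median level was 197 TPM and their median percentile among protein-coding genes 96.8, while detected protein-coding genes had a median of 23.0 TPM. In RNA from a whole culture, fewer expressing cells and less RNA per cell cannot be told apart.

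Among the SR proteins, 9 of 10 exceeded 100 TPM in both replicates. Srsf2, which also acts in transcription elongation, led with 1137 TPM in replicate 1 and 855 in replicate 2 (996 ± 199). Srsf1, the founding member of the family, had the next highest mean, from 668 and 317 (493 ± 248), the largest SD of this class, and stood below Srsf5 in replicate 2. Srsf5 had 526 and 351, above Srsf10 (298 ± 183), Srsf3 (291 ± 105) and Srsf11 (285 ± 121) in each replicate. The order of those 3 genes differed between the replicates. Srsf6 (193 and 213), Srsf7 (183 and 138), Srsf9 (169 and 141) and Srsf4 (96.0 and 123) had the lower means, although Srsf6 was above Srsf10 and Srsf11 in replicate 2. Srsf4 was the lowest SR protein in both replicates. Of the TRA2 proteins, which bind purine-rich enhancers as SR proteins do, Tra2b was at 342 and 189 TPM and Tra2a at 113 and 60.6.

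The hnRNPs were the most abundant class, with a summed level of 8686 TPM in replicate 1 and 6289 in replicate 2 and a median of 517 TPM per gene. Hnrnpk, a KH-domain protein that binds C-rich RNA, was the highest of all 44 genes in both replicates, at 1409 and 1060.2 TPM. Hnrnpa2b1 (1202 and 983) and Hnrnpa1 (884 and 732), which silence splice sites and have roles in RNA transport, came next in the class in replicate 2. Hnrnpa3 had 1031 TPM in replicate 1 but 347 in replicate 2, the widest gap of the class. Hnrnpd (AUF1, known for binding AU-rich messages) had 663 ± 75.5 TPM, Hnrnpf 661 ± 124, Hnrnpl 572 ± 46.7, Hnrnpm 463 ± 197 and Hnrnph1 456 ± 52.9. Hnrnpc, which binds uridine tracts and competes with U2AF for them, had 290.3 ± 78.0. Hnrnph2 (182 ± 46.4), Hnrnpr (147 ± 49.2) and Hnrnpa0 (137 ± 30.2) were lower.

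Hnrnpu, a nuclear scaffold protein, had the lowest mean of the hnRNPs, from 137 and 47.5 TPM, but its locus is divided in the annotation used for the deposited tables. There, another gene identifier holds 3 transcripts that the later GENCODE release M21 assigns to Hnrnpu, with 625 and 538 TPM, and a further identifier holds 1 more, with 37.5 and 17.1 TPM. With all 9 transcripts together Hnrnpu had 799.9 TPM in replicate 1 and 603 in replicate 2 (701 ± 139). The 3 transcripts set apart, Hnrnpu-206, Hnrnpu-208 and Hnrnpu-209, are annotated as NMD transcripts. Grouped by release M21, NMD and retained-intron transcripts together made up 81.1% and 90.0% of Hnrnpu by TPM, and 64.0% and 70.6% by expected counts.

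Among the tissue regulators, 1 paralog of each family was well above the others. Ptbp1, the PTB form of non-neuronal cells, had 344 and 619 TPM. Its neuronal paralog Ptbp2 had 14.0 and 6.66, and Ptbp3, first described in blood cells, 118 and 92.7. Mbnl1 stood at 276 and 280.0 TPM, against 6.91 and 3.79 for Mbnl2 and 14.6 and 12.6 for Mbnl3. Celf1 had 95.7 and 62.9 TPM and Celf2 15.7 and 12.6. The 5 lower paralogs, named as such from these same values, lay below their partners in both replicates. This order is a description of levels only.

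Rbm38, an RNA-binding protein known to act on splicing late in erythroid differentiation, had 87.8 TPM in replicate 1 and 157 in replicate 2. Qk, the KH-domain regulator quaking, had 93.0 and 52.8. Rbfox2, which acts on erythroid and muscle exons, was the lowest of the 44 genes at 2.80 and 2.70 TPM, from 882 and 1089 counts, while its neuronal paralog Rbfox1 had 1 and 0 counts (a count of 0 allows up to 3.75e-06% of the reads in replicate 2, for counting error only). Regulators known from brain, muscle or epithelium were mostly absent: 5 of 21 genes of such a list reached TPM of 1 in both replicates and 6 of 21 had no count in either. Its highest members were Rbm20 (25.9 and 38.2), a regulator of titin exons in heart muscle, Celf4 (22.0 and 12.8) and Msi1 (3.39 and 4.26).

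The factors of the 3′ splice site varied less among themselves. U2af1, which contacts the AG, had 315 and 322 TPM. U2af2, which binds the pyrimidine tract beside it, had 236 and 354, so the order of the U2AF subunits differed between the replicates. The SF3B subunits of the U2 snRNP were at 190.5 and 84.5 TPM (Sf3b1) and 198 and 184 (Sf3b2). The branch-point binding protein Sf1 had 184 and 183. Zrsr2, the U2AF1-related factor of the minor spliceosome, had 143 and 72.8, below U2af1 in both replicates. Luc7l, which associates with the U1 snRNP at the 5′ splice site, had 59.4 and 45.2.

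**Figure D1:**
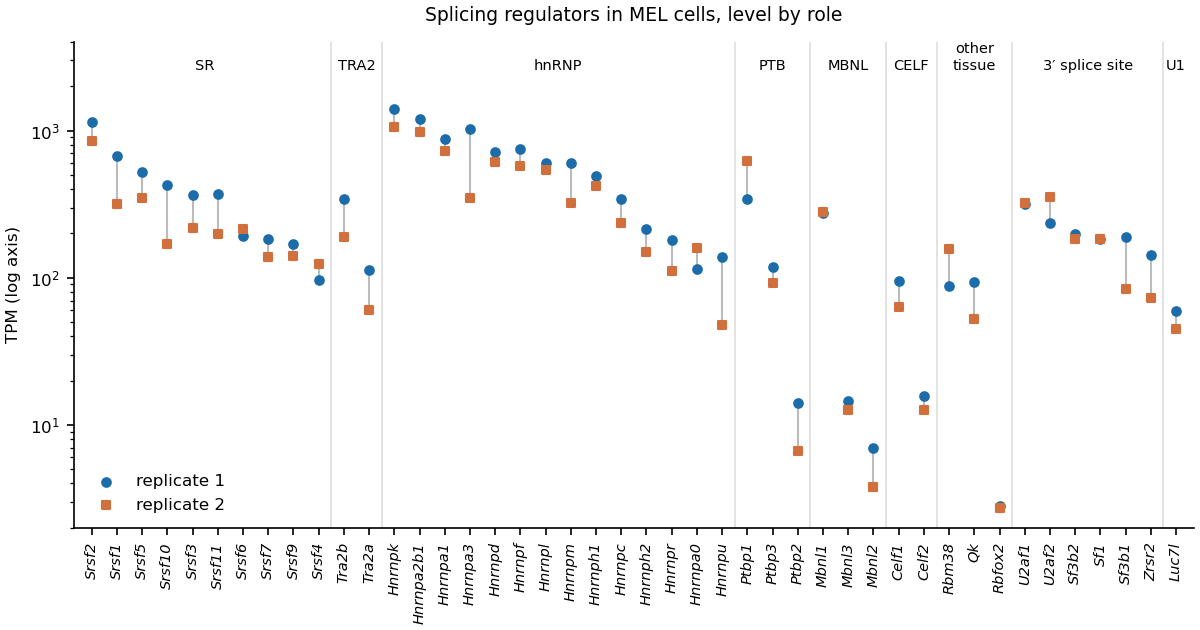
TPM of each of the 44 genes (log axis) in replicate 1 (circles) and replicate 2 (squares), grouped by role and ordered by mean level, with a line joining the replicates. The hnRNPs reach 1409 TPM (Hnrnpk), while Ptbp2, Mbnl2, Mbnl3, Celf2 and Rbfox2 lie far below their families' other members or the other genes.

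For paralog pairs, TPM plus a pseudocount of 0.1 was compared as a log2 ratio. A pair was taken as apart when both replicates had the same sign and the mean exceeded 1.42 (2.67-fold), the 95th percentile of the difference between replicates over genes at TPM of at least 1. Of 14 pairs, 9 were apart. The share of unrelated gene pairs past this limit was not counted, so this count only describes levels. Mbnl1 exceeded Mbnl2 by 5.74 ± 0.61 on the log2 scale (53.3-fold) and Mbnl3 by 4.35 ± 0.16. Ptbp1 exceeded Ptbp2 by 5.56 ± 1.35 (47.3-fold) and Ptbp3 by 2.14 ± 0.85. The values were 2.45 ± 0.21 for Celf1 over Celf2, 1.62 ± 0.03 for Tra2b over Tra2a, 1.64 ± 0.71 for U2af1 over Zrsr2 and 2.99 ± 0.29 for Hnrnpl over its paralog Hnrnpll. The ninth pair is Rbfox2 over Rbfox1, whose ratio is set by the pseudocount. U2af1 over Zrsr2 was 1.14 in replicate 1, under the limit, and 2.14 in replicate 2. The other 5 pairs stayed within the limit: Hnrnph1 over Hnrnph2 at 1.34 ± 0.20, Srsf6 over Srsf4 at 0.90 ± 0.15, Srsf3 over Srsf7 at 0.82 ± 0.25, Hnrnpa2b1 over Hnrnpa1 at 0.43 ± 0.01 and U2af2 over U2af1 at -0.14 ± 0.39. Hnrnph1 over Hnrnph2 passed it in replicate 2 alone, at 1.49.

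Most of these genes were lower in replicate 2. On counts scaled by TMM, the log2 ratio of replicate 2 over replicate 1 had a median of -0.59 over the 44 genes. Over all 15229 genes tested it was 0.03. Of the 44 genes, 36 were higher in replicate 1, against 48.6% of all genes tested. A difference of 2-fold or more, higher in replicate 1, was found in 6 of the 44 genes, against 11.9% of all genes tested. These were Hnrnpa3 (-1.65), Srsf10 (-1.21), Hnrnpu (-1.17), Ptbp2 (-1.06), Sf3b1 (-1.04) and Ptbp3 (-1.03). With all transcripts of its locus together Hnrnpu had -0.86, which is under 2-fold, and by the ratio of TPM Ptbp3 had -0.35 while Srsf1 passed 2-fold at -1.07. No regulator was 2-fold higher in replicate 2, against 8.53% of all genes, and the largest values on that side were Ptbp1 (0.95), Rbm38 (0.91) and U2af2 (0.60). The 10 erythroid markers lay on the other side, with a median log2 ratio of 0.82 and Gata1 at 1.25. Their part in the difference was not tested. With 1 group of 2 libraries these are descriptions without a test.

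GC content moved with this difference. The 44 genes had a median GC content of 44.4% in their most abundant transcript, against 50.4% over all genes tested. All 31 genes under 50% GC were higher in replicate 1, and of the 13 others 8 were higher in replicate 2. In the class of 40 to 45% GC the median log2 ratio was -0.79 over all 2478 genes and -0.82 over the 19 regulators. In the class of 55 to 60% it was 0.71 over 3052 genes and 0.40 over 5 regulators. With a smooth GC trend over all genes removed, the median of the 44 genes was -0.06, against 0.00 over all genes. Of the 44, 25 were then higher in replicate 1 and 19 in replicate 2, counts given without a share over all genes. Only 1 was 2-fold higher in replicate 1, against 4.60% of all genes. That gene was Zrsr2 (-1.22), and no regulator was 2-fold higher in replicate 2, against 4.02%. Hnrnpa3 then had -0.73, Srsf10 -0.24, Hnrnpu -0.20, Sf3b1 -0.18, Ptbp2 -0.07 and Ptbp3 0.13. Scaled by library totals in place of TMM, which put the median of all genes at 0.14, 3 genes were 2-fold higher in replicate 1 and 2 in replicate 2.

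**Figure D2:**
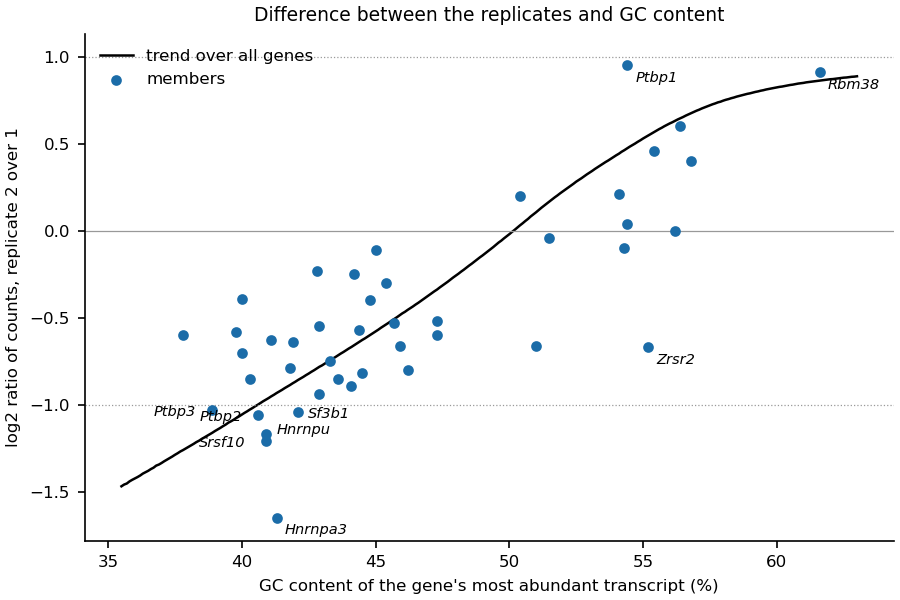
Log2 ratio of scaled counts, replicate 2 over replicate 1, of each of the 44 genes (points) against the GC content of its most abundant transcript. The curve is the trend over all genes and the dotted lines mark 2-fold. All genes under 50% GC lie below 0, and Zrsr2 lies farthest under the curve.

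Some values rest on how reads were divided with near-identical copies. Processed pseudogenes, intronless copies of a message, matched 15 of the 44 genes at 90% identity or more over at least 50% of their length, 56 copies in all. The 21 copies of Hnrnpa3 held 44762 counts in replicate 1 and 44346 in replicate 2, against 98765 and 39957 on the gene itself. Nearly all lay on 1 copy, Gm5641, with 42809 and 43554. With the copies added, the log2 ratio of Hnrnpa3 went from -1.65 to -1.11. The 11 copies of Hnrnpa1 held 19333 and 13768 counts, 27.4% and 18.3% of the gene's own. For Tra2b the copies held 178 counts in replicate 1 and 5064 in replicate 2, and for Hnrnpf 80 and 5130, and with them the log2 ratios went from -0.79 to -0.52 and from -0.30 to -0.19. Whether those reads came from the gene or from a copy was not tested. On the opposite strand, the antisense gene Gm17134, which shares 437 exon bases with Ptbp1, had 188 and 81.8 TPM and 3409 and 1893 counts, against 34561 and 84894 on Ptbp1. Since use of strand in counting is not given in the sources used here, the values of that pair are uncertain. Other genes of the 44 also share exon bases with neighbours. Cox20, opposite Hnrnpu, shares 804 bases and had 2001 and 544 counts, against 30272 and 17089 on Hnrnpu. March2 shares 1169 bases with Hnrnpm on the same strand and had 553 and 1030 counts. How reads were divided in these overlaps was not tested.

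Transcript forms were then examined. The tables list 357 transcripts of the 44 genes, and 26 genes have at least 1 transcript of a type called unproductive here, that is, annotated for NMD or as retaining an intron. For 18 genes, among them Srsf7, Srsf9, Tra2a, Hnrnpa1, Hnrnpc, Ptbp2, U2af2 and Sf3b2, no such transcript was quantified, although release M21 holds one for 12 of the 18, so a share of 0 in these genes says nothing about their splicing. Of 39 genes with several transcripts, taken without a minimum level, the most abundant transcript was the same in both replicates in 26 (66.7%). Among protein-coding genes with several transcripts and TPM of at least 10 in both replicates, it was the same in 78.4%. In 5 genes a transcript with at least 25% of TPM in 1 replicate was at 0 in the other. The share of all genes with such a transcript is not given here. Examples among the 5 genes are Mbnl1-215, with 0% and 46.7% of Mbnl1, and Hnrnpa3-207, with 33.9% and 0% of Hnrnpa3. Sums over transcript types are therefore given first, and single transcripts with both replicates.

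Unproductive transcripts made up at least 25% of TPM in both replicates in 7 of the 26 genes (26.9%): Qk, Srsf11, Luc7l, Hnrnpd, Srsf6, Srsf3 and Hnrnpl. Among all 3501 protein-coding genes with such a transcript and TPM of at least 10, 21.6% did, so the share of called regulators lay near the background. By expected counts, which give short transcripts less weight, 5 of 26 were called (19.2%), against 14.3%, and Srsf6 and Hnrnpl dropped out. The median share over the 26 genes, taken on the mean of the replicates, was 14.7% of TPM, against 10.7% for the background. Within replicates it was 17.3% and 16.6%, against 9.42% and 9.52%, but the 26 genes also had a median of 4 such transcripts listed, against 2. Srsf1, at 62.1% and 23.9%, Srsf2, at 34.4% and 24.2%, and Ptbp3, at 0.389% and 26.2%, passed the threshold in 1 replicate only.

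**Figure D3:**
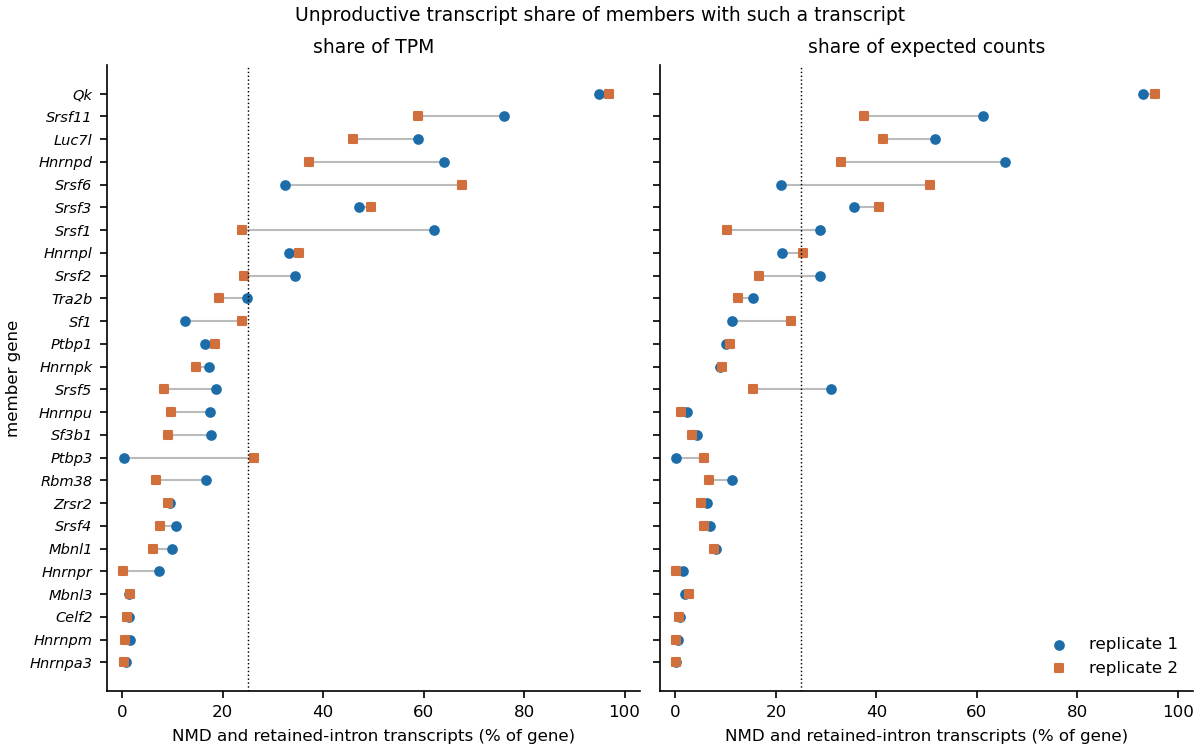
Share of each gene's TPM (left) and expected counts (right) on transcripts annotated for NMD or as retaining an intron, for the 26 genes that have such a transcript, in replicate 1 (circles) and replicate 2 (squares). The dotted line marks the 25% threshold. Qk stands at 96.0% ± 1.29 of TPM, and Srsf1, Srsf6 and Hnrnpd differ widely between the replicates.

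Among the SR and TRA2 proteins, poison exons under the rule used here (internal exons of NMD transcripts that carry part of the reading frame and overlap no exon of a coding transcript) were found in the quantified transcripts of Srsf3, Srsf4, Srsf11 and Tra2b. Srsf3-201, an NMD transcript, includes an internal exon of 456 bases absent from the coding transcripts, at chr17:29039454-29039909 on the plus strand of GRCm38 (mm10). It held 17.2% of Srsf3 TPM in replicate 1 and 28.3% in replicate 2 (15.6% and 24.8% by counts), beside 52.9% and 50.4% for the coding Srsf3-202. With retained-intron transcripts, led by Srsf3-205 (24.8% and 16.4%), the unproductive share of Srsf3 was 47.1% and 49.6%. Tra2b-206 carries a poison exon of 276 bases at chr16:22258986-22259261 on the minus strand and held 16.6% and 14.5% of Tra2b. Srsf6-201 held 24.4% and 62.8% of Srsf6. Like the shares of the other NMD transcripts, this share gives no measure of decay. Srsf6-201 shares its stop with a coding transcript, and that stop lies 534 bases before its last junction. The exon that carries this stop overlaps one annotated as coding and is not printed. Srsf4-203 and Srsf4-204 held 4.83% and 3.36% of Srsf4 in replicate 1 and 1.97% and 3.14% in replicate 2.

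The start of 5 poison exons is shown because it holds the stop codon that ends the open reading frame early. The Srsf11 exon is that of Srsf11-212, which held 0.424% and 1.19% of the gene, and the exons of Srsf4-203 and of Srsf11-206 and Srsf11-210 are not printed. The bases run from the first base of the exon to that stop, which is in capitals, and come from the GENCODE M21 transcripts, 5′ to 3′. The coordinates are those of the printed bases.
Srsf3 (chr17:29039454-29039487, plus strand): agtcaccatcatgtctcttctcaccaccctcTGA
Tra2b (chr16:22259181-22259261, minus strand): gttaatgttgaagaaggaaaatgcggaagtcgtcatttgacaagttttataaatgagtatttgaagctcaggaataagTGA
Srsf11 (chr3:158023310-158023359, minus strand): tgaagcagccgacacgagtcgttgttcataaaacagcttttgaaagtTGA
Hnrnpl (chr7:28817335-28817393, plus strand): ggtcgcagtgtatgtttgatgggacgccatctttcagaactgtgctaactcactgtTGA
Sf3b1 (chr1:55014905-55014924, minus strand): gcttctattctgctgctTGA

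The poison exon of Luc7l is of another kind. It has 71 bases, at chr17:26253974-26254044 on the plus strand, and holds no stop in frame, but its length leaves a remainder of 2 on division by 3 and shifts the reading frame to a stop in a later exon. Luc7l-206, which includes it, held 16.1% and 23.1% of Luc7l, and the retained-intron transcript Luc7l-204 35.3% and 16.4%. The unproductive share of this gene was 58.9% and 46.0%.
Luc7l (whole exon): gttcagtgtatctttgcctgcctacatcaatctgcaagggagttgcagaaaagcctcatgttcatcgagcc

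For 5 of these exons a retained-intron transcript covers the end of the intron before them, which U2AF reads. The last 20 intron bases are shown, with the AG in capitals.
Tra2b: cctgttctttttctattaAG
Srsf11: tttttctgtgtgctttatAG
Luc7l: cctctattttatttataaAG
Srsf3: aaaaatgaaccccgttacAG
Sf3b1: gtaaagagataattttctAG
Pyrimidines made up 15 of the 20 bases in Tra2b, 14 in Srsf11 and 13 in Luc7l, but 8 in both Srsf3 and Sf3b1. The exons of Srsf3 and Sf3b1 are not alike in use, at 17.2% and 28.3% for Srsf3-201 but 4.35% and 0.793% for Sf3b1-208.

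In Srsf11 the unproductive transcripts were mostly of the retained-intron type. NMD transcripts held 1.06% and 2.77% of its TPM, while retained-intron transcripts held 75.0% and 56.2%, with Srsf11-207 at 45.5% and 38.2%. By counts its unproductive share was 61.2% and 37.6%. Its main coding transcript, Srsf11-202, held 33.3% and 51.7% of counts. In Srsf5, too, retained-intron transcripts (18.6% and 8.11%) exceeded NMD transcripts (0.0361% and 0.157%). Srsf10 had 71.6% and 66.1% of its TPM on transcripts annotated as processed without a reading frame, mostly the 394-base Srsf10-209 (57.4% and 47.1% of TPM but 16.4% and 12.4% of counts).

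Apart from Srsf4 and the genes with exons printed above, a poison exon under this rule was found only in Celf2. That exon has 41 bases, at chr2:6554280-6554320 on the minus strand, and its transcript Celf2-228 held 0% of Celf2 in both replicates. NMD transcripts of the remaining genes are described by the stop codon and the splice junction behind it. Of the 33 NMD transcripts quantified for the 44 genes, 26 have a stop shared with no coding transcript. Another 5 share the stop of a coding transcript other than the most abundant, and 2 that of the most abundant. Srsf2-204, whose stop is that of the leading coding transcript with a splice junction behind it, held 28.0% and 19.7% of Srsf2. The stop of Srsf1-204, by contrast, is shared with no coding transcript and lies 80 bases before its last junction. Srsf1-204 held 30.2% and 17.3% of Srsf1, while the retained-intron transcript Srsf1-203 held 30.1% and 1.46%. Hnrnpd had 63.9% and 37.2% of TPM on NMD transcripts, but by different ones: Hnrnpd-208 held 43.8% in replicate 1 and 0% in replicate 2, while Hnrnpd-204 had 13.1% and 22.6% and Hnrnpd-209 5.81% and 14.4%. These 3 share their stop with a coding transcript. Qk-202 likewise shares its stop with a coding transcript, 810 bases before its last junction in release M21, and held 96.0% ± 1.29 of Qk (n = 2). Only 2 transcripts of Qk were quantified, and the high share of Qk-202 gives no measure of decay. With NMD counted only where the stop belongs to no coding transcript, 4 of the 26 genes kept a share of at least 25% in both replicates. The share of all genes called under this restriction is not given here, so the count is a description only.

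Hnrnpl, known to include a poison exon in its own message, had unproductive shares of 33.2% and 35.2%, mostly retained-intron transcripts (31.3% and 24.9%), with Hnrnpl-213, which carries the exon printed above, at 1.86% and 10.3%. In Ptbp1, Ptbp1-201 held 6.64% and 7.04%, beside 59.7% and 62.2% for the coding Ptbp1-202, and the unproductive share of the gene was 16.5% and 18.4%. Sf1-201 held 6.86% and 18.0% of Sf1. Rbm38-206 held 12.0% and 0.778% of Rbm38. Hnrnpk had 17.2% and 14.7% on unproductive transcripts, Sf3b1 17.7% and 9.19%, Zrsr2 9.42% and 9.02% and Mbnl1 9.93% and 6.20%. In Mbnl3, Celf2, Hnrnpm and Hnrnpa3 the shares were 1.59% or lower in both replicates, and Hnrnpr had 7.34% and 0.0536%. A low unproductive share does not mean that the rest was coding. Transcripts annotated as processed without a reading frame held 59.7% and 15.7% of Zrsr2 and 46.3% and 72.6% of Hnrnph1. They held 36.7% and 15.8% of Srsf2 and 20.2% and 42.3% of Mbnl3.

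**Figure D4:**
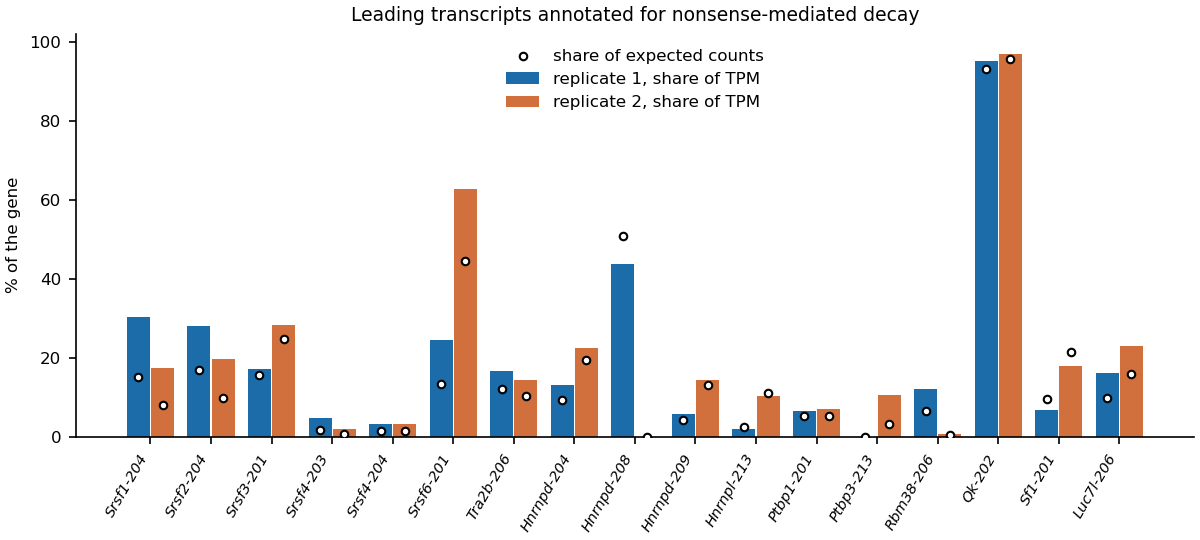
Share of the gene's TPM on the 17 transcripts annotated for NMD that held a mean of at least 3% (bars, replicate 1 and replicate 2) and share of expected counts (open circles). Tra2b-206 has 16.6% and 14.5% and Ptbp1-201 6.64% and 7.04%, whereas Srsf6-201 goes from 24.4% to 62.8% and Hnrnpd-208 from 43.8% to 0%.

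U2af1 has alternative coding exons of equal length that exclude each other, and the choice between them was alike in both replicates. U2af1-201 held 87.8% and 84.3% of the gene and U2af1-202 12.2% and 15.7%. Both transcripts are 907 bases long in the deposited tables, so length does not alter the share. The exon of U2af1-201 lies at chr17:31651646-31651712 and that of U2af1-202 at chr17:31652502-31652568, both on the minus strand, and both are coding throughout. They have 67 bases each, of which 44 are identical. The exons are shown with the differing 23 bases in capitals.
U2af1-201: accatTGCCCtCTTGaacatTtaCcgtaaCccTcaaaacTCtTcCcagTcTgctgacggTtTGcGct
U2af1-202: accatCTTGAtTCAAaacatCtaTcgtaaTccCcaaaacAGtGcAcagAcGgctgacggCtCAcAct

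Transcripts of 2 genes known as targets of these regulators were read beside them. Pkm, the pyruvate kinase gene whose M1 exon is silenced by PTBP1, HNRNPA1 and HNRNPA2B1 in dividing cells, stood at 1504 and 2035 TPM. Pkm-202, which carries the upstream of 2 exclusive exons of 167 bases (chr9:59675029-59675195, the M1 exon), held 8.25% and 6.74% of the gene, and Pkm-201, with the downstream exon (chr9:59675568-59675734), held 91.7% and 93.3%. Epb41, the erythroid membrane skeleton protein 4.1, was at 106 and 85.5 TPM. Its only internal exon of 63 bases, at chr4:131962924-131962986, is in 9 of the 14 transcripts that span the position. Those 9 held 49.4% of the spanning TPM in replicate 1 and 14.3% in replicate 2 (37.3% and 10.9% by counts), so the inclusion of this exon was not determined beyond the spread between the replicates.

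The kinases that phosphorylate SR proteins were also expressed. Of 9 genes in a list of SR protein kinases and importers, 7 reached 10 TPM in each replicate, the highest by mean being Srpk1 (128 and 125), the import receptor Tnpo3 (122 and 105) and Clk1 (90.5 and 31.0). Clk1 had 77.2% and 80.7% of its TPM on unproductive transcripts, with Clk1-211 at 33.1% and 38.2%, and Clk4 50.2% and 62.0%. In this list 4 of 6 genes with such transcripts were called at the 25% threshold, against the background of 21.6%. Muscle kinase Srpk3 was lowest, at 0.140 and 0.120 TPM.

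All 15 genes of a list of the NMD machinery and the exon junction complex reached TPM of 10 in both replicates, with a median of 40.7. The junction proteins Eif4a3 (393 and 397), Magoh (313 and 157) and Rbm8a (231 and 158) were highest, and Smg6 (11.4 and 14.5), the endonuclease of the pathway, lowest. The decay helicase Upf1 had 36.0 and 65.8 TPM. In this list 2 of 6 genes were called for unproductive share, against the background of 21.6%. The 27 core snRNP subunits all reached 10 TPM, with a median of 192, and their median log2 ratio between the replicates was -0.04. Of the 16 with an unproductive transcript 4 were called, against the background of 21.6%, and the median share was 4.55%. Of 30 other RNA-binding splicing regulators 29 reached 10 TPM, with a median of 177, with Hnrnpab (994 and 834) and Ewsr1 (649 and 1031) highest. In that list 9 of 18 genes were called, against the same background of 21.6%. These lists and that of the kinases were described by counts of genes only. For them, shares by expected counts and the number of unproductive transcripts listed per gene were not set beside the background. Whether any list differs from the background was not tested.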

How the data were processed

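Symbols, transcript types and positions came from GENCODE M21 (GRCm38, the same build as mm10), matched by identifier without version. Per the file headers and labels, the deposited tables rest on mm10 and annotation M4. Which aligner and quantifier were used, and whether counting used strand, is not given in the sources used here. The expected counts deposited by the authors are estimated reads per gene or transcript. TPM and FPKM, as deposited, correct for effective length and library size, and the percent column deposited by the authors is each transcript's share of its gene. The deposited score columns hold posterior means, SDs and interval bounds of TPM within 1 library. Short numeric features and spike-ins (2.93% and 6.24% of TPM) were left out, and TPM was not rescaled.

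The 44 genes and all lists were chosen with earlier results of these data known. Genes named are the 44, up to 3 highest and 3 lowest of each other list, both genes of each pair and the target genes. Upf1, the pseudogenes, Gm17134, Cox20, March2 and the exons of Sf3b1 and Celf2 were added after their values were seen. Expected counts were rounded, scaled by TMM (edgeR 4.0.16) and compared as log2 ratios with a prior count of 0.5 where both replicates together held 20 or more counts. Nothing was tested, since there is 1 group, and replicates may differ by technical causes. Transcripts were grouped by the gene identifier of the tables. Of 357 transcripts, 355 matched M21, 119 with the same version and 326 with the same length. Srsf3-201, Tra2b-206 and Qk-202 (4658 bases as deposited, 5832 in M21) differ in length, so their exons may differ between releases. GC is that of the most abundant transcript, and its trend a lowess curve with a fraction of 0.3. Pseudogenes were matched with BLAST 2.17.0. Steps were tested on simulated data. Alternatives were FPKM, posterior mean TPM, rescaled TPM, other minimums, pseudocounts and thresholds, DESeq2 1.42.0 size factors, library totals, GC removal, shares of expected counts, transcripts of the same version, and each replicate left out. Intervals and floors cover counting error only.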

Additional observations from a re-analysis of the deposited data

How the results depend on the processing

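No paired analysis was possible because there is 1 group. All 44 genes were detected under every alternative, and 39 (FPKM) to 42 stood at 10 TPM. The median level was 139.6 in FPKM, a differently scaled unit, and 184 and 207 with 1 replicate left out. Genes 2-fold higher in replicate 1 numbered 3 with library totals and 1 with the GC trend removed, against 6, and those higher in replicate 2 numbered 2 with library totals, against 0. Ptbp3 changed sign with the GC trend removed (0.13). Genes called for unproductive share, 7 as reported, numbered 13 at a threshold of 10%, 2 at 50%, 2 with NMD transcripts alone, 1 with retained introns alone, 4 with NMD counted only for stops of no coding transcript (added after the data were seen), 10 with transcripts of the same version, and 8 and 9 without replicate 1 and 2. Their median share, 14.7% for the mean of both replicates, was 9.74% by counts, 5.67% for NMD alone, 7.02% for retained introns alone and 30.9% with transcripts of the same version. It was 16.6% and 17.3% without replicate 1 and 2. Among alternatives added after the data were seen it was 13.4% with transcripts of the same length, 12.5% with NMD restricted by stop and 16.7% with transcripts grouped by release M21. The cause of these shifts was not tested beyond the construction of each alternative. For the counts of genes called for unproductive share, the share over all genes under each alternative is not given here. Pairs apart numbered 8 to 10.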
